A study of Mus musculus with 6 samples.

Results

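Transcript levels of the nuclear-encoded subunits of oxidative phosphorylation were compared between Neuro-2a cells, a mouse neuroblastoma line, that carried an expanded polyglutamine protein and cells that carried an empty GFP vector. The members are the genes whose symbol in the array's annotation starts with Nduf and a, b, c, s or v, with Sdha, Sdhb, Sdhc or Sdhd, with Uqcr, with Cox4 to Cox8 or with Atp5, together with the cytochrome c gene Cycs. The 4 Ndufaf assembly factors were left out, and Cyc1 was not analysed here. This rule gave 60 of 6788 named genes, of which 23 belong to complex I, 5 to complex II, 5 to complex III, 10 to complex IV and 16 to complex V. Among them are 3 names that are not subunits, namely the assembly factor Sdhaf2, the pseudogene Ndufs5-ps and Cox7a2l, which joins complexes into supercomplexes. The members were spotted as 86 cDNA clones, each in duplicate, and 40 of them rest on 1 clone.

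The 59Q transfected cells received human TATA-box binding protein, TBP, with a CAG repeat length of 59, fused to GFP (59Q TBP-GFP), and the vector transfected controls received N3, which encodes GFP alone. Total RNA was taken 60 h after a transient transfection, so the RNA of both groups also holds that of cells that took up no plasmid, and fewer cells with a transcript cannot be told apart from less transcript per cell. Each of 6 mouse cDNA arrays, read in 2 colours, received RNA of both groups. The 59Q sample carried Cy5 on replicates 1, 3, 4 and 6, whereas replicates 2 and 5 had it in Cy3. The deposited value is a Z-ratio, a score with mean 0 and SD 1 over the spots of an array, from which no level and no fold change can be read, so the identity of the cells could not be checked from marker levels.

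The sources used here do not state in which direction the values of the dye-swapped arrays run. Results are therefore given as deposited, taken as 59Q over N3 on every array, and read as Cy5 over Cy3, where the sign of replicates 2 and 5 is turned to give 59Q over N3, and neither reading is preferred. The difference between the dye orientations is the mean with 59Q in Cy5 minus the mean with 59Q in Cy3, taken from the values as deposited. A member with opposite signs in the orientations follows the dye in the first reading and separates 59Q from N3 in a single direction in the second, and these cannot be told apart here. Members were measured on 57 to 60 of 60 genes per array, 57 of them on all 6, and their duplicate spots correlated at r = 0.889 to 0.974. Ndufs7 was measured on 2 arrays, at 1.08 and 0.482 on replicates 1 and 2, and was not tested, which left 59 members among 6463 genes with values on at least 4 arrays.

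Oxidative phosphorylation couples the transfer of electrons in the inner mitochondrial membrane to the synthesis of ATP. Complex I takes electrons from NADH and complex II from succinate, both pass them to ubiquinone, complex III hands them on to cytochrome c, and complex IV transfers them to oxygen. Complexes I, III and IV pump protons, and complex V, the ATP synthase, lets them back through its membrane rotor to drive the catalytic head. Most subunits are encoded in the nucleus and imported, and a small set is encoded in mitochondrial DNA. Neurons depend on this pathway for most of their ATP, and cytochrome c released from mitochondria activates caspases. Promoters of the nuclear genes commonly bind Nrf1, the ETS factor Gabpa, Sp1 and Yy1, and many lack a TATA box, the element that TBP binds directly.

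Promoters are shown because the transfected protein is a promoter-binding factor. RefSeq promoters (GRCm38.p6), each spanning 250 bases before to 50 after the start of the gene, were matched for 50 of 60 members, 4 of them with 2 entries. No entry was matched for Atp5a1, Atp5mpl, Cox4i1, Cox6c, Ndufb9, Ndufs1, Ndufs5-ps, Sdhc, Uqcrb and Uqcrc2. The letters TATAAA, of the box that TBP binds, occurred on either strand in 6 of 54 member promoters (11.1%) and in 13.6% of all 32851 promoters. CCGGAAG, the core bound by ETS factors, occurred in 33.3% against 8.86%, and GCGCANGCG, bound by Nrf1, in 27.8% against 6.25%. AANATGGCG, bound by Yy1, occurred in 18.5% against 2.38%, and GGGCGG, bound by Sp1, in 38.9% against 35.7%. No motif contains another, and matches that overlap were counted for each. The share with ETS, Nrf1 and Yy1 letters was thus higher in the members than over all promoters, while those of the TATA box and Sp1 letters were close to them, as the plot of motif shares shows. The median GC content was 57.5% in member promoters and 52.7% in all. The 6 promoters with TATAAA belong to Atp5l, Atp5md, Ndufb7, Ndufs7 and, with both of its entries, Ndufa7.

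**Figure D1:**
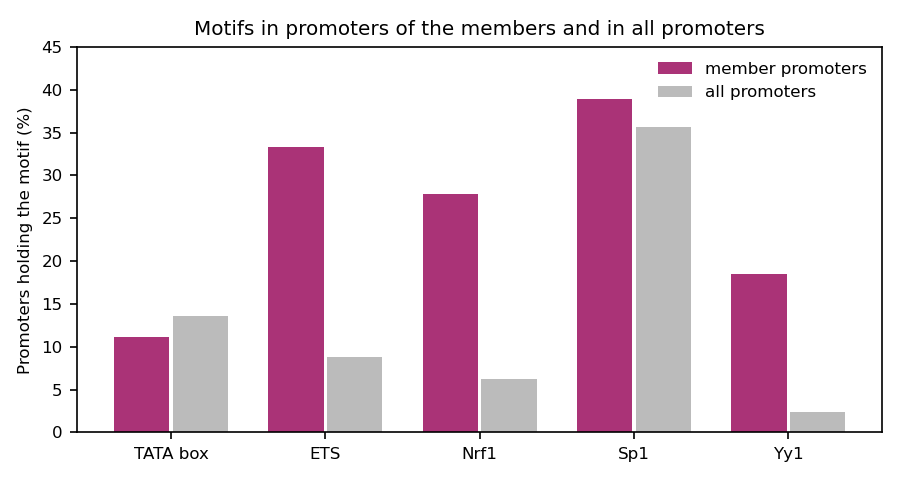
Bars give the percentage of promoters of 300 bases that hold each motif on either strand, for the 54 member promoters and for all 32851 promoters of the table. The ETS, Nrf1 and Yy1 bars of the members stand above those of all promoters, while the TATA box and Sp1 bars lie near them.

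The 150 bases upstream of the start are given, 5′ to 3′ in the gene's direction, for the 3 members with the highest and the 3 with the lowest difference between dye orientations among those with 1 promoter entry, since these carry the pattern described below. Capitals mark the motifs named above on either strand.
Atp5b (chr10:128083157-128083306, plus strand): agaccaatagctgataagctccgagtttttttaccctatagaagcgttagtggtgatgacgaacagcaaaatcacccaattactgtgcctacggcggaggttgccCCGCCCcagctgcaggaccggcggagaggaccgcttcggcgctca
Ndufa12 (chr10:94198885-94199034, plus strand): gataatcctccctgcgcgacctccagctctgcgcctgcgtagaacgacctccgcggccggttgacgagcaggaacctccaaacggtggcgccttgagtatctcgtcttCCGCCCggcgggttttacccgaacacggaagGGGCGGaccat
Uqcr11 (chr10:80406822-80406971, minus strand): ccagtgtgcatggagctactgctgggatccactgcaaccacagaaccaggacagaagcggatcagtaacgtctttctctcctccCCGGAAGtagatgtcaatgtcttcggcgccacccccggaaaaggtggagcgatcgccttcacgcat
Cox6b1 (chr7:30626115-30626264, minus strand): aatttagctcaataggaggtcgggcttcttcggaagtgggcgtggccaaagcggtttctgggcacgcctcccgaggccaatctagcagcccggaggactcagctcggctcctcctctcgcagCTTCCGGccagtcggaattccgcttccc
Atp5j2 (chr5:145191542-145191691, minus strand): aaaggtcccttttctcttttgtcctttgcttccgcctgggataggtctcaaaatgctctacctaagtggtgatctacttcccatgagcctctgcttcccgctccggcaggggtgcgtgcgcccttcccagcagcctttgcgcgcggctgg
Cox7a2 (chr9:79759854-79760003, minus strand): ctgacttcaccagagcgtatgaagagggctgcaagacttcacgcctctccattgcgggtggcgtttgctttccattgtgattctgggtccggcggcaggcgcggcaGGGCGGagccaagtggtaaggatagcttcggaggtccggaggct
The stretches of Atp5b, Ndufa12 and Uqcr11 belong to members that were higher with 59Q in Cy5, and those of Cox6b1, Atp5j2 and Cox7a2 to members that were lower. TATAAA was found in none of these stretches. GGGCGG letters were in members of both directions, and so were CCGGAAG letters. Over the member promoters TATAAA was found in 1 of 21 whose gene was higher with 59Q in Cy5 and in 4 of 32 whose gene was lower, beside the promoter of the untested Ndufs7. Of those 4, both entries of Ndufa7 and that of Ndufb7 belong to genes with differences near 0, -0.0529 and -0.0537. The entry of Atp5l belongs to a gene at -1.08. AANATGGCG was found in 1 of the 21 and 8 of the 32, CCGGAAG in 6 and 12, GCGCANGCG in 5 and 10, and GGGCGG in 11 and 10. The directions are those over all clones of a gene. Among the higher genes Atp5c1, Atp5g3, Atp5o and Atp5pb were lower with the clones whose accession starts with BG alone, as described below. These letter matches are a description and were not tested.

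The question of the study was whether 59Q TBP alters the transcript profile. As deposited, no oxidative phosphorylation gene could be called different between 59Q transfected cells and vector controls, as 0 members passed the limma test at an adjusted p under 0.05, against 0% of all 6463 genes tested. At an unadjusted p under 0.05 there were 0 members against 2.61% of all genes. The median of the members' mean Z-ratios was -0.0584 and that of all genes -0.0449, with 19 members above 0 and 40 below. Means ran from -0.668 ± 0.825 for Ndufb10, an accessory subunit in the membrane arm of complex I, to 0.879 ± 2.64 for Ndufs1, the largest iron-sulfur subunit of complex I (SD, n = 6 arrays each). The SD between arrays was larger than the size of the mean for 59 of 59 members. The limma SE of a member's mean ran from 0.222 to 0.757 Z-ratio units, and shifts near that size were not detectable with this number of arrays. When read as Cy5 over Cy3, 0 members passed, against 0.279% of all genes. At an unadjusted p under 0.05 there were 22 of 59 members, a larger share than the 19.8% of all genes. The median in this reading was -0.245 against -0.160 over all genes. With a dye term in the fit 0 members passed, against 0% of all genes, and 0 had an unadjusted p under 0.05, against 2.79% of all genes. The study describes biological replicates with dye-swapped pairs, but which arrays form a pair is not given in the sources used here, so some arrays may share RNA and these p-values measure only the spread between arrays, which may be technical in part.

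**Figure D2:**
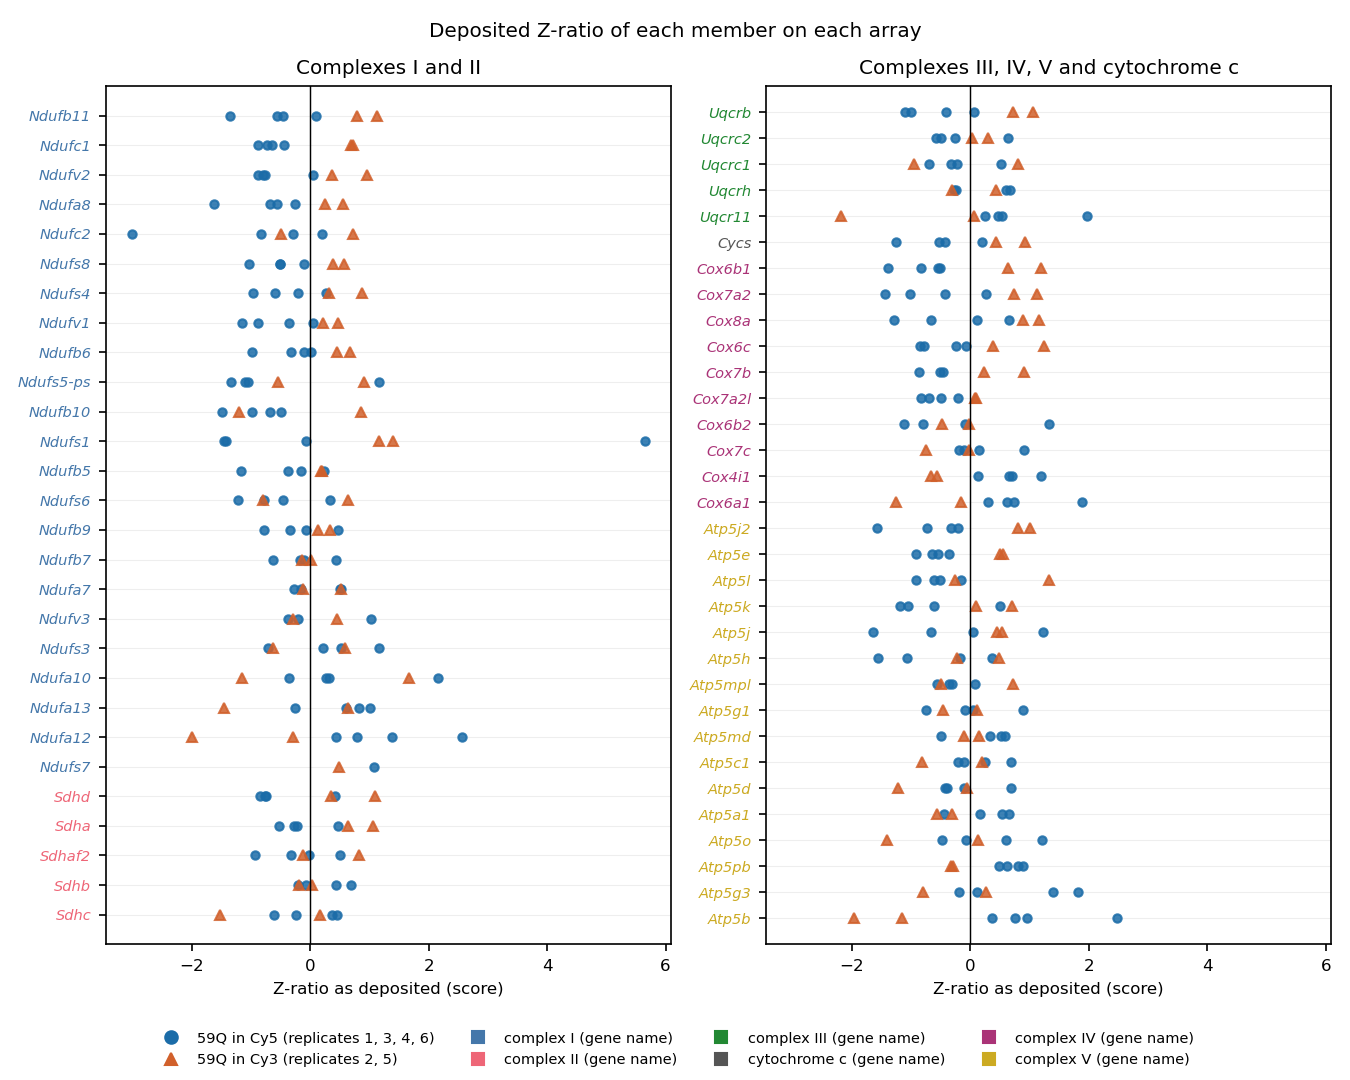
Each point is the deposited Z-ratio of a member on an array, the mean of its clones, with circles for the 4 arrays with 59Q in Cy5 and triangles for the 2 arrays with 59Q in Cy3, and gene names coloured by complex. Within each complex members run from the lowest to the highest difference between orientations, from Cox6b1 at -1.73 to Atp5b at 2.70 over all complexes.

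Between the dye orientations the members spread widely and in both directions. With 59Q in Cy5, 37 of 59 members (62.7%) were lower than with 59Q in Cy3, close to 65.0% of all genes, and the median difference was -0.542 against -0.317 over all genes. Centring each array on its median moved the latter to -0.161, so differences are to be read against that shift. In limma 0 members passed the adjusted threshold, against 0% of all genes, and the smallest adjusted p of a member was 0.171. At an unadjusted p under 0.05, 6 members (10.2%) were higher with 59Q in Cy5, against 5.91% of all genes, and 15 (25.4%) were lower, against 10.2%. Both directions together, this limma count depended on the setting. It was 15 after centring, and 14, 19, 13 and 22 without replicates 1, 3, 4 and 6. The share of all genes in these settings is not given here. Of 57 members on 6 arrays, the orientations did not overlap and were higher with 59Q in Cy5 in 6 (10.5%), against 8.42% of all such genes. They did not overlap and were lower in 18 (31.6%), against 24.4%. Read as Cy5 over Cy3, 13 members (22.8%) had 1 sign on every array, against 16.2% of all genes on 6 arrays, and as deposited 0 did. By complex, the median of the members' means as deposited was -0.0787, -0.0128, -0.0620, -0.0950 and -0.0278 in complexes I to V, and in the Cy5 over Cy3 reading these medians were -0.377, -0.245, -0.0996, -0.470 and 0.112. The limma SE of a member's difference ran from 0.389 to 1.74.

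**Figure D3:**
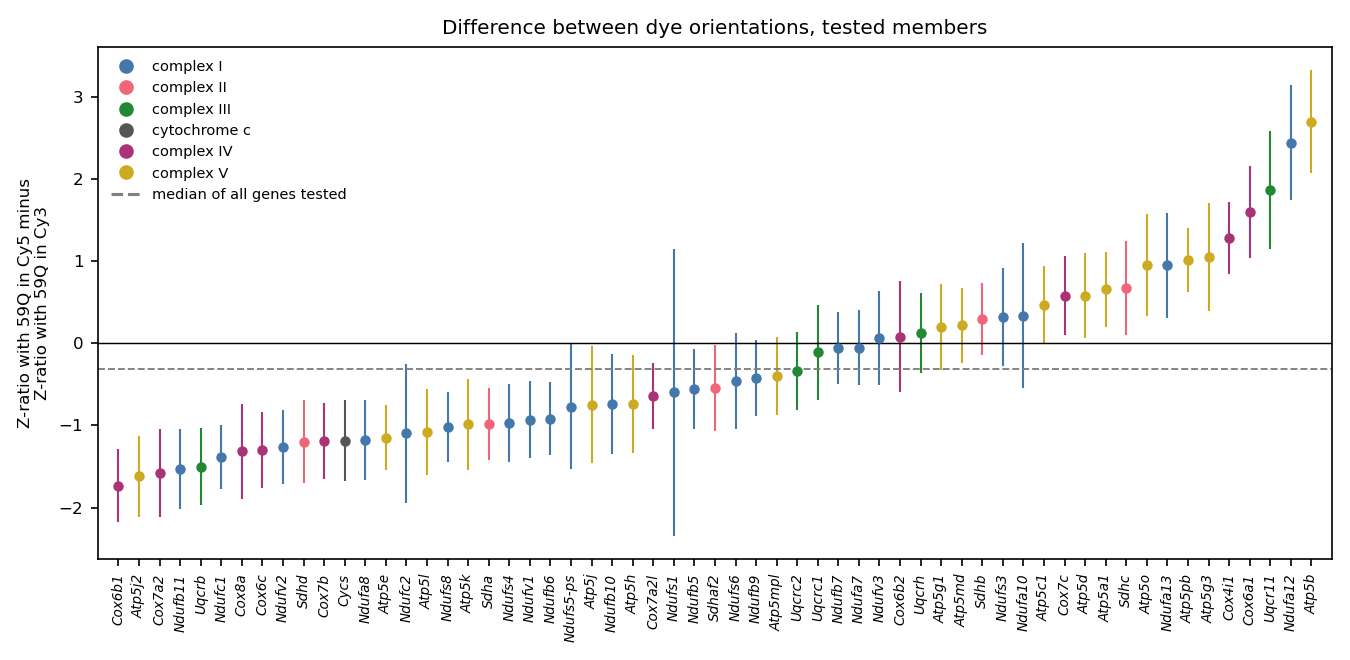
Points give the difference in Z-ratio between the arrays with 59Q in Cy5 and those with 59Q in Cy3 for the 59 tested members, coloured by complex, bars give the limma SE and the dashed line is the median of all genes tested (-0.317). Atp5b, Ndufa12, Uqcr11 and Cox6a1 lie highest and Cox6b1, Atp5j2, Cox7a2 and Ndufb11 lowest, and no difference passed the adjusted test.

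Complex I, the NADH dehydrogenase, had more members below than above 0 in the difference between orientations, as all genes did. Of its 22 tested members 17 had a difference below 0, where 65.0% of all genes did. On 6 arrays, 8 of 21 did not overlap and were lower, against 24.4% of all genes, while 1 was higher, against 8.42%. The median difference was -0.670, from -1.53 to 2.44. Ndufc1, a small accessory subunit of the membrane arm, was at -0.887, -0.738, -0.444 and -0.644 on replicates 1, 3, 4 and 6, with 59Q in Cy5, and at 0.687 and 0.724 on replicates 2 and 5, with 59Q in Cy3. All values of the first orientation were below 0 and both of the second above 0, with a difference of -1.38 (SE 0.390, limma adjusted p = 0.225). Ndufb11, another accessory subunit of that arm, was at -0.555, 0.101, -0.457 and -1.36 with 59Q in Cy5 and at 0.797 and 1.12 with 59Q in Cy3, in the same order of replicates. The orientations did not overlap, though replicate 3 lay near 0, and the difference was -1.53 (SE 0.489, limma adjusted p = 0.250). Ndufa12, an accessory subunit of the matrix arm, ran the other way, at 2.57, 0.439, 0.793 and 1.38 with 59Q in Cy5 and at -2.00 and -0.295 with 59Q in Cy3. Its orientations did not overlap either, with the largest sizes on replicates 1 and 2, and the difference was 2.44 (SE 0.697, limma adjusted p = 0.226).

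Some values in complex I rested on a single array. Ndufs1, at the head of the matrix arm, was at -0.0688, 5.65, -1.42 and -1.45 with 59Q in Cy5 and at 1.40 and 1.16 with 59Q in Cy3. Its mean turned from 0.879 to -0.0759 without replicate 3. Ndufc2, which sits beside Ndufc1 in the membrane arm, was at -3.02, -0.284, -0.831 and 0.206 with 59Q in Cy5 and at 0.726 and -0.497 with 59Q in Cy3. Replicate 1 was the lowest single value of any member, and the orientations overlapped. Ndufb10 was at -0.683, -0.502, -1.50 and -0.981 with 59Q in Cy5 and at -1.20 and 0.851 with 59Q in Cy3, below 0 on all arrays but replicate 5, and its mean as deposited had the smallest unadjusted p of all members in limma, 0.0509. The pseudogene Ndufs5-ps had a difference of -0.770 with overlapping orientations.

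Complex II, the succinate dehydrogenase of the citric acid cycle, showed no common direction. Of its 5 members 2 had a difference above 0 and 3 below, with a median of -0.542, or -0.168 without replicate 2. Sdha, the catalytic flavoprotein, was at 0.467, -0.219, -0.273 and -0.533 with 59Q in Cy5 and at 0.630 and 1.06 with 59Q in Cy3. The orientations did not overlap, and both clones agreed, with differences of -1.03 and -0.937. Sdhb, the iron-sulfur subunit that passes electrons on, was at 0.684, 0.435, -0.215 and -0.0783 and at 0.0218 and -0.192, with no separation. The membrane anchors, which bind ubiquinone, had differences of opposite sign on all arrays together, but not without replicate 2. Sdhd was at -0.740, -0.763, -0.847 and 0.410 with 59Q in Cy5 and at 1.09 and 0.341 with 59Q in Cy3, low on all arrays of the first orientation but replicate 6, while Sdhc was at 0.364, -0.612, 0.454 and -0.233 and at -1.52 and 0.161, with its lowest value on replicate 2. Their differences were -1.20 (SE 0.507, limma adjusted p = 0.301) and 0.672 (SE 0.572, limma adjusted p = 0.565), and that of Sdhc was -0.168 without replicate 2. Sdhaf2, which helps to attach the flavin to Sdha, had a difference of -0.542 with overlapping orientations.

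Complex III, the cytochrome c reductase, was split between 2 of its small subunits. The median difference of its 5 members was -0.111, and 0.499 without replicate 5. Uqcr11, an accessory subunit, was at 1.96, 0.250, 0.457 and 0.525 with 59Q in Cy5 and at -2.19 and 0.0567 with 59Q in Cy3. Its orientations did not overlap, but replicate 5 was near 0 and replicates 1 and 2 carried most of the difference of 1.86 (SE 0.715, limma adjusted p = 0.282). Uqcr11 rests on 1 clone, whose accession starts with CK, and such clones were more often the higher, as described below. Uqcrb, which lies near the ubiquinone site, was at -1.10, 0.0654, -1.01 and -0.421 with 59Q in Cy5 and at 1.05 and 0.714 with 59Q in Cy3. It was lower in the first orientation without overlap, and each of its 2 clones gave the same difference, -1.50 (SE 0.472, limma adjusted p = 0.246). The matrix core subunits Uqcrc1 and Uqcrc2 had differences of -0.111 and -0.339, and Uqcrh, the hinge subunit that contacts cytochrome c1, had 0.129. All 3 overlapped between the orientations. Cycs, the soluble carrier between complexes III and IV, was at -1.25, -0.439, -0.529 and 0.191 with 59Q in Cy5 and at 0.919 and 0.435 with 59Q in Cy3. Its orientations did not overlap, and the difference was -1.18 (SE 0.492, limma adjusted p = 0.295). Its mean as deposited was -0.113 ± 0.779 (SD, n = 6), smaller than the spread between arrays, and as Cy5 over Cy3 it was -0.564.

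Complex IV, the cytochrome c oxidase, held members at both ends of the range. Of 9 members on 6 arrays 2 were higher with 59Q in Cy5 without overlap, where 8.42% of all such genes were. Without overlap 5 were lower, where 24.4% of all such genes were. Cox7b on 5 arrays was lower without overlap too, and the median difference was -0.916. Cox6b1, which faces the intermembrane space near the cytochrome c site, was at -1.39, -0.523, -0.833 and -0.548 with 59Q in Cy5 and at 1.19 and 0.626 with 59Q in Cy3. All values of the first orientation were below 0 and both of the second above, with the lowest difference of all members, -1.73 (SE 0.444, limma adjusted p = 0.201). Cox6a1, the widely expressed form of a regulatory subunit, was at 1.88, 0.613, 0.297 and 0.740 with 59Q in Cy5 and at -1.26 and -0.165 with 59Q in Cy3. The signs were the opposite of those of Cox6b1 on every array, with a difference of 1.60 (SE 0.561, limma adjusted p = 0.262). Cox4i1, the widely expressed form of another regulatory subunit, was at 1.18, 0.698, 0.645 and 0.130 with 59Q in Cy5 and at -0.558 and -0.669 with 59Q in Cy3. It was above 0 in the first orientation and below in the second, and each of its 4 clones had a difference above 0, from 0.635 to 2.39 (difference 1.28, SE 0.437, limma adjusted p = 0.261).

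The isoform sets of complex IV were measured in part. Cox7a2, the widely expressed form, was at -1.03, 0.256, -0.426 and -1.44 with 59Q in Cy5 and at 0.727 and 1.12 with 59Q in Cy3, without overlap, and its relative Cox7a2l was at -0.492, -0.834, -0.217 and -0.708 and at 0.0799 and 0.0888. Both were lower with 59Q in Cy5, by a difference of -1.58 (limma adjusted p = 0.261) and of -0.647 (limma adjusted p = 0.440). Cox8a was at -1.29, 0.117, -0.660 and 0.656 with 59Q in Cy5 and at 0.880 and 1.16 with 59Q in Cy3, again without overlap, and its difference was -1.32 (limma adjusted p = 0.308). Cox6b2, known as the testis form beside Cox6b1, had a difference of 0.0818 with overlapping orientations. Cox4i2, Cox6a2, Cox7a1 and Cox8b were not analysed here.

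Complex V, the ATP synthase, had a median difference of 0.208 over all clones but of -0.744 with the clones whose accession starts with BG alone. In the F1 part, the head where ATP is made with its central stalk, 4 of 5 subunits were higher with 59Q in Cy5, with a median of 0.581, and among the other 11 subunits 6 were lower, with a median of -0.395. With BG clones alone 2 of 5 in F1 were higher (median -0.267) and 9 of the other 11 lower (median -0.943). Atp5b, the catalytic beta subunit, was at 2.48, 0.960, 0.360 and 0.749 with 59Q in Cy5 and at -1.97 and -1.15 with 59Q in Cy3. Every value of the first orientation was above 0 and both of the second were below, with the highest difference of all members, 2.70 (SE 0.624, limma adjusted p = 0.171). Its 3 clones agreed closely, from 2.58 to 2.86. The mean of Atp5b as deposited was 0.238 ± 1.59 and as Cy5 over Cy3 1.28 ± 0.795 (SD, n = 6), where its limma adjusted p was 0.0916. The alpha, gamma and delta subunits of F1, Atp5a1, Atp5c1 and Atp5d, had differences of 0.660, 0.468 and 0.581, with overlapping orientations and, for Atp5a1 and Atp5c1, clones of opposite sign. Atp5e, the small epsilon subunit of the central stalk, was the exception in F1, at -0.649, -0.924, -0.363 and -0.556 with 59Q in Cy5 and at 0.500 and 0.549 with 59Q in Cy3. It was below 0 throughout the first orientation and above 0 in the second, with a difference of -1.15 (SE 0.396, limma adjusted p = 0.262).

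Outside F1, Atp5j2, the membrane subunit f, was at -1.59, -0.212, -0.730 and -0.325 with 59Q in Cy5 and at 1.01 and 0.810 with 59Q in Cy3. The signs separated the orientations completely, with a difference of -1.62 (SE 0.493, limma adjusted p = 0.244). Atp5pb, subunit b of the peripheral stalk, was at 0.890, 0.796, 0.479 and 0.621 with 59Q in Cy5 and at -0.301 and -0.327 with 59Q in Cy3, and separated the other way, with a difference of 1.01 (SE 0.389, limma adjusted p = 0.283). These values average 2 clones of opposite direction, with a difference of 2.96 in the CK clone and -0.943 in the BG clone. Atp5h, subunit d of the same stalk, had -0.741 with overlap. The rotor subunit c is encoded by several genes with the same mature protein. Of these Atp5g3 was at 1.39, 1.82, 0.104 and -0.189 with 59Q in Cy5 and at -0.800 and 0.258 with 59Q in Cy3, the highest deposited mean in complex V, 0.430 ± 0.988 (SD, n = 6). Atp5g1 was at 0.881, 0.0489, -0.0875 and -0.758 and at -0.466 and 0.117, and neither separated the orientations. Long cDNA probes can also bind transcripts of close paralogs and processed pseudogenes, so values of Atp5g1, Atp5g3 and Ndufs5-ps are uncertain in identity.

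Several members that were higher with 59Q in Cy5 were so in only some of their clones. Of 20 members with several clones, 9 had clones with differences of opposite sign. The annotated clones carry accessions that start with BG or CK. Of those 9 members, Atp5g1, Ndufb7, Uqcrc1 and Uqcrh have BG clones alone. The BG clones of Atp5c1 also differed in sign, at 0.264 and -0.931. The 6 members with both starts, all of complexes IV and V, had the higher mean difference in the CK clones in 6 of 6. For Atp5o, the peripheral stalk subunit that binds the head, the CK clone gave 3.16 and the BG clone -1.26. For Atp5pb these were 2.96 and -0.943, and for Atp5g3 2.52 and -0.967. In Atp5c1 they were 2.07 and -0.334, in Atp5a1 0.969 and -0.267, and in Cox4i1, where both were above 0, 2.39 and 0.907. Within Atp5a1 the CK clones ran from -0.367, below its BG clone, to 2.25. Over the array as a whole the CK clones were also the higher more often, in 228 of 349 genes with both (65.3%), and the median difference was 0.393 for 700 CK clones and -0.298 for 8748 BG clones. With BG clones alone, an alternative chosen after seeing the data, the median difference of complex V was -0.744 in place of 0.208, and 5 of its members changed sign, Atp5a1 (-0.267), Atp5c1 (-0.334), Atp5g3 (-0.967), Atp5o (-1.26) and Atp5pb (-0.943). No member of the other complexes with a BG clone did, and Atp5b, whose clones all start with BG, kept its difference. Uqcr11 and Ndufa7 have a CK clone alone and fell out of this alternative. What the accession start stands for was not tested.

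**Figure D4:**
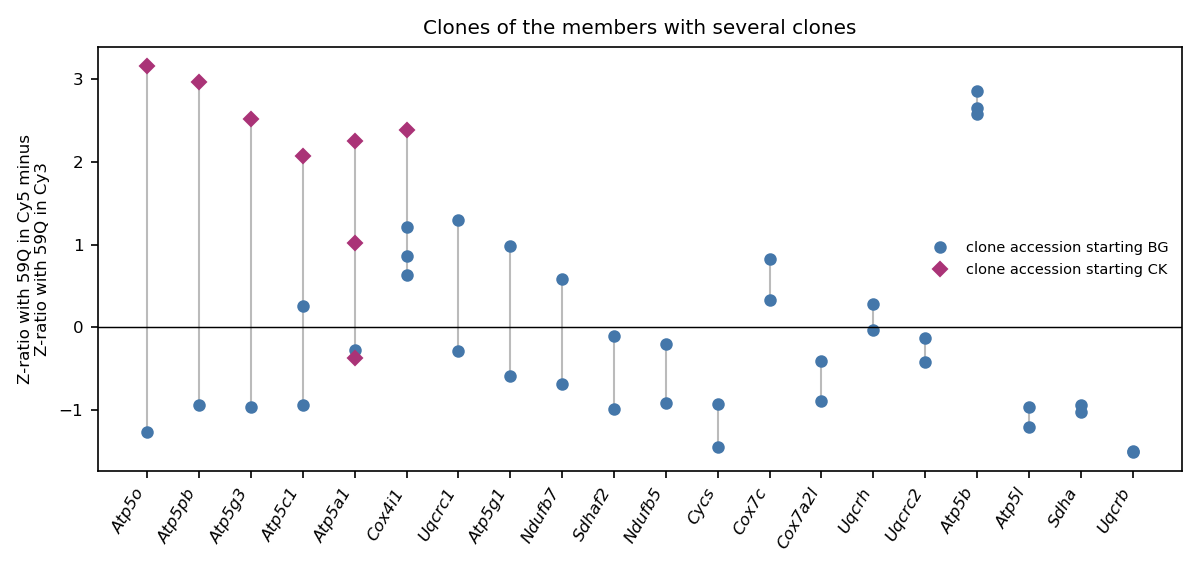
Each point is the difference in Z-ratio between the arrays with 59Q in Cy5 and those with 59Q in Cy3 for a clone of the 20 members with several clones, ordered by the range within a gene, with circles for accessions starting BG and diamonds for CK. The widest range, 4.41 in Atp5o, lies between a CK and a BG clone, while the clones of Atp5b, Sdha and Uqcrb lie close together.

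Few gene values on single arrays, averaged over duplicate spots and clones, reached the threshold of the study, a Z-ratio of 1.96 in size. Of 354 values of members on single arrays 8 did (2.26%), against 2.77% of all gene values, and no member's mean did as deposited. They were Atp5b (2.48), Ndufa12 (2.57), Ndufa10 (2.16) and Ndufc2 (-3.02) on replicate 1, Atp5b (-1.97), Ndufa12 (-2.00) and Uqcr11 (-2.19) on replicate 2, and Ndufs1 (5.65) on replicate 3. All of these averages lay on replicates 1 to 3, and Atp5b and Ndufa12 were beyond the threshold on a pair of arrays with opposite sign. Single member spots were beyond it also on replicate 6, where there were 4, and on replicate 4, with 1. Of the member spots on replicate 1, 12.2% were beyond it against 5.65% of all spots there, and on the other arrays the members' share was 0% to 5.23% against 2.29% to 5.73%. The SD over members was 1.17 on replicate 1, where it was 0.849 over all genes, and 0.522 on replicate 5, where it was 0.826. Across the 57 members on 6 arrays, which are not independent, r ranged from -0.155 to 0.550 (median 0.304, 7 pairs) between arrays of the same orientation. Between opposite orientations it ranged from -0.749 to 0.0129 (median -0.329, 8 pairs), with the lowest value between replicates 1 and 2. All genes showed the same split of signs, with medians of 0.171 and -0.270.

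Among other nuclear genes of the pathway none passed the adjusted test as deposited or between the orientations. Their counts stand beside 65.0% of all genes with a difference below 0, and beside 10.2% lower and 5.91% higher at an unadjusted p under 0.05. Of 17 enzymes of the citric acid cycle and pyruvate oxidation 14 were lower with 59Q in Cy5, with a median difference of -0.795, and 3 lower and 1 higher had an unadjusted p under 0.05. Idh3g, a subunit of the NAD-dependent isocitrate dehydrogenase, had -1.52, Cs, the citrate synthase, -1.25, and Pcx, the pyruvate carboxylase, 1.19. Of 21 assembly factors, Sdhaf2 among them, 12 were lower (median -0.229), with 1 lower and 1 higher at an unadjusted p under 0.05. Foxred1, which helps to build complex I, had -1.01 and Coa3, which does so for complex IV, 1.71. Of 12 genes of carriers, electron transfer and ubiquinone synthesis 8 were lower (median -0.174), with 2 lower and 0 higher at that p. The adenine nucleotide carrier Slc25a5 and the phosphate carrier Slc25a3, which supply complex V, had -0.0499 and -0.246. Of 14 regulators of respiratory genes 13 were lower (median -0.387), with 0 in either direction at that p. Tfam, a transcription factor that also packs mitochondrial DNA, had -0.725, and Nrf1, Gabpb1, Sp1 and Yy1 had -0.0673, -0.782, 0.254 and -0.719. Mitochondrially encoded subunits were not analysed here.

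The members stood nearer to the bulk of genes than the cytosolic ribosomal proteins did, though no test of that contrast was made. The median over members was -0.492, -0.252, -0.217 and -0.189 with 59Q in Cy5 on replicates 1, 3, 4 and 6, and 0.0799 and 0.382 with 59Q in Cy3 on replicates 2 and 5. Over all genes these medians were -0.173, -0.204, -0.118, -0.0284, 0.139 and 0.211, in the same order. All members together and complex I thus lay below 0 throughout the first orientation and above 0 in the second, as all genes did. The 71 cytosolic ribosomal proteins ran the other way, with 65 differences above 0, a median of 1.84 and 44 higher at an unadjusted p under 0.05. The 43 mitochondrial ribosomal proteins had a median of -0.480, with 32 below 0. Among the members Atp5b (2.70), Ndufa12 (2.44) and Uqcr11 (1.86) lay above the median of the cytosolic ribosomal proteins, Uqcr11 with a CK clone alone. Among markers of neuroblasts, 4 of 19 in the list were measured, and the differences were 2.45 for Tubb3, 2.46 for Uchl1, -0.367 for Th and -1.40 for Gap43. The 6 measured markers of other cell types ran from -0.636 to 0.125. The part of these in the members' differences was not tested.

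**Figure D5:**
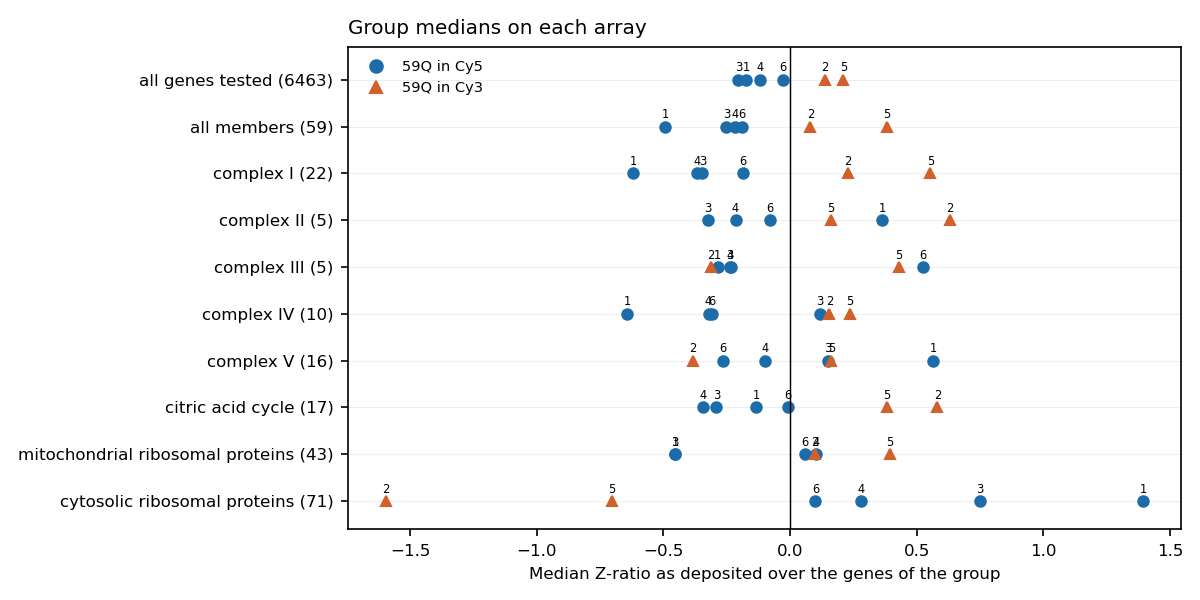
Points give the median deposited Z-ratio over the tested genes of each group on each array, with the number of genes in brackets, circles for 59Q in Cy5, triangles for 59Q in Cy3 and the replicate number above each point. All members and complex I separate the orientations in the direction of all genes, complex IV does so narrowly, complexes II, III and V overlap, and the cytosolic ribosomal proteins separate in the opposite direction and most widely.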

How the data were processed

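The deposited score of each spot is a Z-ratio: the authors labelled RNA of 59Q and N3 transfected cells by tyramide signal amplification, hybridized it to mouse cDNA arrays, scanned them, extracted intensities with GenePix Pro and applied a Z score transformation. Software versions and background correction are not stated, no intensity was analysed, and the number of arrays limits the precision. Duplicate spots were averaged per clone and clones per gene, with names from the platform annotation. Of 31200 spots 18384 had 1 gene symbol, 514 several and 12302 none, and 18172 were matched to current symbols by Entrez identifier. At members, 2 clones with several symbols were left out.

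Genes measured on at least 4 arrays were fitted with limma 3.58.1 in R 4.3.3, for the mean against 0 and for the difference between dye orientations, with p-values adjusted after Benjamini-Hochberg over all genes and a threshold of 0.05. The fit was tested on simulated data. Motifs were counted in Python 3.11.15 and plots made with matplotlib 3.10.9. The members, gene lists and motifs were chosen with earlier results of these data known. The text gives, in each complex, up to 3 members with the smallest p for the difference and up to 2 with the smallest p as deposited, the highest and lowest deposited means, complex II, Cycs, isoform sets and names that are not subunits. Other members were named after their values were seen. Alternatives changed the direction of the swapped arrays, a dye term, the arrays used, centring, scaling, normalization, extreme values, missing values, the clone summary, the variance model, the member rule and the replicates.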

Additional observations from a re-analysis of the deposited data

Results flagged for a closer look

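Results were singled out where every array with 59Q in Cy5 lay on one side of 0 and both arrays with 59Q in Cy3 on the other. For medians this difference was not tested, and for single genes only limma's test of the difference was run, which none passed after adjustment. Averaged over arrays, the median of all members differed by -0.518 and that of complex I by -0.771, as means of the medians on each array. The medians over all genes tested met the same condition. They were -0.173, -0.204, -0.118 and -0.0284 with 59Q in Cy5 and 0.139 and 0.211 with 59Q in Cy3. The members higher with 59Q in Cy5 were Atp5b (2.70), Ndufa12 (2.44), Cox6a1 (1.60), Cox4i1 (1.28) and Atp5pb (1.01). For Atp5pb this is an average of clones of opposite direction, 2.96 in the CK clone and -0.943 in the BG clone. Of the members described by the naming rule, those lower were Cox6b1 (-1.73), Atp5j2 (-1.62), Ndufc1 (-1.38), Atp5e (-1.15) and Cox7a2l (-0.647). Outside that rule Cox6c (-1.30), Ndufa8 (-1.18) and Ndufs8 (-1.02) met the same condition and were lower.

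Among the 4 arrays with 59Q in Cy5, a single array stood far from the others by Dixon's test in 3 cases. The median of complex III was 0.525 on replicate 6, Sdhd was at 0.410 on replicate 6 and Uqcr11 at 1.96 on replicate 1. Chance singles out about 1 in 20 such groups.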

How the results depend on the processing

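No paired analysis was possible because the dye-swapped pairs are not identified and the groups share no replicate number. As deposited, no gene passed the adjusted limma test under the alternatives run over all genes. For the difference between dye orientations 1 gene passed after quantile normalization, 2 with the robust variance model, 4 with values beyond 5 set to 5, 6 without replicate 1 and 6 without replicate 2, against 0 in the fit reported, and no other alternative gave any. With BG clones only, the median difference was -0.741 over all members and -0.744 in complex V. Read as Cy5 over Cy3, the median of complex IV was -0.470. The cause was not tested. For single members, only those described by the naming rule were followed, here and in the ranges below. Others turned too, such as Ndufb6, whose mean went from -0.0477 to 0.105 with a dye term. Signs of the members followed turned as listed next, and the cause was not tested. With a dye term the mean was for Ndufb11 0.197, Ndufc1 0.0136, Sdhaf2 0.0775, Sdhd 0.114, Uqcr11 -0.135, Uqcrb 0.134, Cycs 0.0847, Cox6b1 0.0428, Cox7a2 0.132, Atp5b -0.212 and Atp5j2 0.0974. Over arrays with 59Q in Cy5 only it was for Sdha -0.139, Cox8a -0.294 and Atp5g1 0.0213, and read as Cy5 over Cy3 for Sdha -0.374, Sdhc 0.222, Cox8a -0.537 and Atp5g1 0.0724. With BG clones only the mean was for Atp5g3 -0.00842 and Atp5pb -0.00956, and the difference for Atp5g3 -0.967 and Atp5pb -0.943. The difference was for Uqcrc1 0.0477 after centring and for Cox6b2 -0.0243 after quantile normalization. Leaving out 1 replicate at a time, the median difference ran from -0.599 to -0.370 for all members, -0.776 to -0.168 for complex II and -0.241 to 0.499 for complex III. The shifts came without replicate 1 (-0.372) or 5 (-0.370) for all members, 2 for complex II and 5 for complex III. Means as deposited that changed sign ran from -0.294 to 0.202 for Ndufb11, -0.0759 to 1.35 for Ndufs1, -0.179 to 0.171 for Sdhaf2, -0.00572 to 0.174 for Sdhb, -0.368 to 0.0268 for Sdhc, -0.320 to 0.0668 for Sdhd, -0.181 to 0.650 for Uqcr11, -0.350 to 0.0810 for Uqcrb, -0.340 to 0.00852 for Uqcrc1, -0.201 to 0.0407 for Uqcrc2, -0.319 to 0.115 for Cycs, -0.382 to 0.130 for Cox7a2, -0.0593 to 0.431 for Cox8a, -0.211 to 0.680 for Atp5b, -0.229 to 0.0987 for Atp5g1 and -0.408 to 0.110 for Atp5j2. Differences that changed sign ran from -1.77 to 0.283 for Ndufb10, -2.26 to 0.111 for Ndufs1, -0.168 to 1.51 for Sdhc, -0.982 to 0.760 for Uqcrc1, -0.241 to 0.499 for Uqcrh, -0.417 to 0.398 for Cox6b2 and -0.0956 to 0.487 for Atp5g1. Without replicate 2 or 5 a lone array with 59Q in Cy3 is left, whose spread is taken from the other arrays. Moving Ndufa4 was void, since it was not analysed here.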

Other observations

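The route by which electrons from fatty acid and amino acid oxidation reach ubiquinone beside complexes I and II held the extreme value among the nuclear genes of the pathway looked at here. Etfdh, the dehydrogenase that hands these electrons to ubiquinone, was at -0.509, 1.94, 10.5 and 0.397 with 59Q in Cy5, on replicates 1, 3, 4 and 6, and at 1.26 and -0.250 with 59Q in Cy3, on replicates 2 and 5. Replicate 4 stood apart, and the orientations overlapped. Etfa, a subunit of the electron transfer flavoprotein that supplies Etfdh, was at -1.52, -0.454, -0.470 and -3.07 with 59Q in Cy5 and at 2.18 and -0.0263 with 59Q in Cy3. It was lowest on replicate 6, its orientations did not overlap, and its difference was -2.46 (limma adjusted p = 0.262). On the same array Oxa1l, which inserts proteins into the inner membrane, was at -3.07, and Ogdh, a subunit of the oxoglutarate dehydrogenase, at -2.71. On their other arrays Oxa1l lay between -0.679 and 1.00 and Ogdh between -0.342 and 1.27. These genes were picked after their values were seen, and none passed the adjusted limma test.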
